A study of Mus musculus with 10 samples.

Results

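The genes described here encode the enzymes that add methyl groups to histone lysines (writers) and those that remove them (erasers), measured in mouse leukemic spleens with and without Sirt1 deletion. Members were chosen by symbol, as names beginning with Kmt, Setd, Suv3, Suv4, Ehmt1, Ehmt2, Nsd1 or Whsc1 (with a number after Kmt and Setd) for the writers and Kdm with a number for the erasers. The table held 39 such genes among 16865 symbols, 21 writers and 18 erasers. All 39 had a normalized count of 10 or more in at least 5 of the 10 libraries, the condition under which 13567 genes were tested. Whsc1 and Whsc1l1 are listed under the newer symbols Nsd2 and Nsd3, which the naming rule does not take, and are given separately.

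Total RNA from 10 leukemic spleens of C57BL/6 recipients was sequenced in bulk. All recipients were irradiated below a lethal dose and then given, by vein, a T-cell leukemia (T-ALL, acute lymphoblastic) with a conditional Sirt1 knockout. The control group, 5 libraries, received corn oil, and the group labelled Sirt1 deleted, 5 libraries, received 3 mg of tamoxifen per mouse in corn oil. Tamoxifen and deletion therefore cannot be told apart, the recombinase is not named, and the age of the mice and the leukemia that each recipient carried are not given. Nothing in the labels says that the libraries of a group came from separate leukemias, so the p-values speak only of how these 10 libraries scatter, which may be technical. The spleens also held host cells.

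Histone lysine methylation is read by chromatin proteins that open or close genes. Methylation of H3K4 marks promoters and enhancers in use, methylation of H3K36 marks transcribed gene bodies, and methylation of H3K9, H3K27 and H4K20 is found in silent or compacted chromatin. Most writers carry a catalytic SET domain, and most erasers are iron-dependent Jumonji enzymes, apart from the flavin-dependent Kdm1a and Kdm1b. SIRT1 deacetylates histones and is known to act together with SUV39H1, a writer of H3K9 methylation, and with LSD1, the product of Kdm1a.

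Sirt1 itself was lower in the group labelled Sirt1 deleted. Its normalized counts were 1324, 1348, 1174, 1192 and 1126 in control libraries 1 to 5 and 922, 824, 1071, 1061 and 710 in Sirt1 deleted libraries 1 to 5, with no overlap (exact two-sided permutation p = 0.00794, the smallest that 5 against 5 allows). Estimated depth lay between 21.2 and 44.3 M reads per library. Values also leaned with transcript length in most libraries. Regressed on log2 length, the log2 deviations gave slopes averaging 0.0805 ± 0.0497 over controls and -0.0805 ± 0.0729 over Sirt1 deleted libraries (SD, n = 5 each, p = 0.00794 by exact permutation). Summed T-ALL and thymocyte markers ranged from 331588 to 359366 in controls and from 320491 to 368373 in the Sirt1 deleted group, with 2 of 16 called lower and 2 higher. Macrophage markers summed to between 13911 and 19867 in the control group and to between 8178 and 13084 in the Sirt1 deleted group, with 7 of 14 lower. B cell markers summed to 249 to 326 in controls and 308 to 501 in Sirt1 deleted libraries, with 3 of 9 higher and a median log2 difference of 0.38. Neutrophil markers (1456 to 4166 against 1997 to 8552, median 0.91) had 2 of 9 higher, and erythroid markers (419776 to 533572 against 204534 to 464956, median -0.44) had 2 of 10 lower. The part of these cell types in the results was tested only by fits with B cell or macrophage markers as a covariate.

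Writers and erasers of histone lysine methylation were for the most part lower in the Sirt1 deleted group. Of the 39 members, 20 fell, 2 rose and 17 did not pass an adjusted p of 0.05 in limma (Benjamini-Hochberg over all genes tested), where 17.5% of all tested genes fell, 14.5% rose and 32% did either. The falls were modest: the median log2 difference over the 39 members was -0.21, against 0.00097 over all tested genes, and the largest among members with over 100 normalized counts was -0.70, in Kdm7a. For 11 members every Sirt1 deleted library lay below every control library and for 2 every one lay above, while over all tested genes these shares were 8.18% and 8.28%. The count of 20 fell to 13 without control library 1 and to 13 without control library 2, and the count of 2 rises fell to 0 without control library 1. Over all tested genes the calls in either direction went from 4344 to 2335 and 2200 in those fits. The members' count was 0 in limma with macrophage markers as a covariate, where 0 of all 13567 tested genes passed (3866 at an unadjusted p under 0.05), although the median differences were then larger, -0.31 for writers and -0.32 for erasers, and 28 members had an unadjusted p under 0.05 in limma. In bulk RNA, fewer cells of a type and less RNA per cell cannot be told apart.

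**Figure D1:**
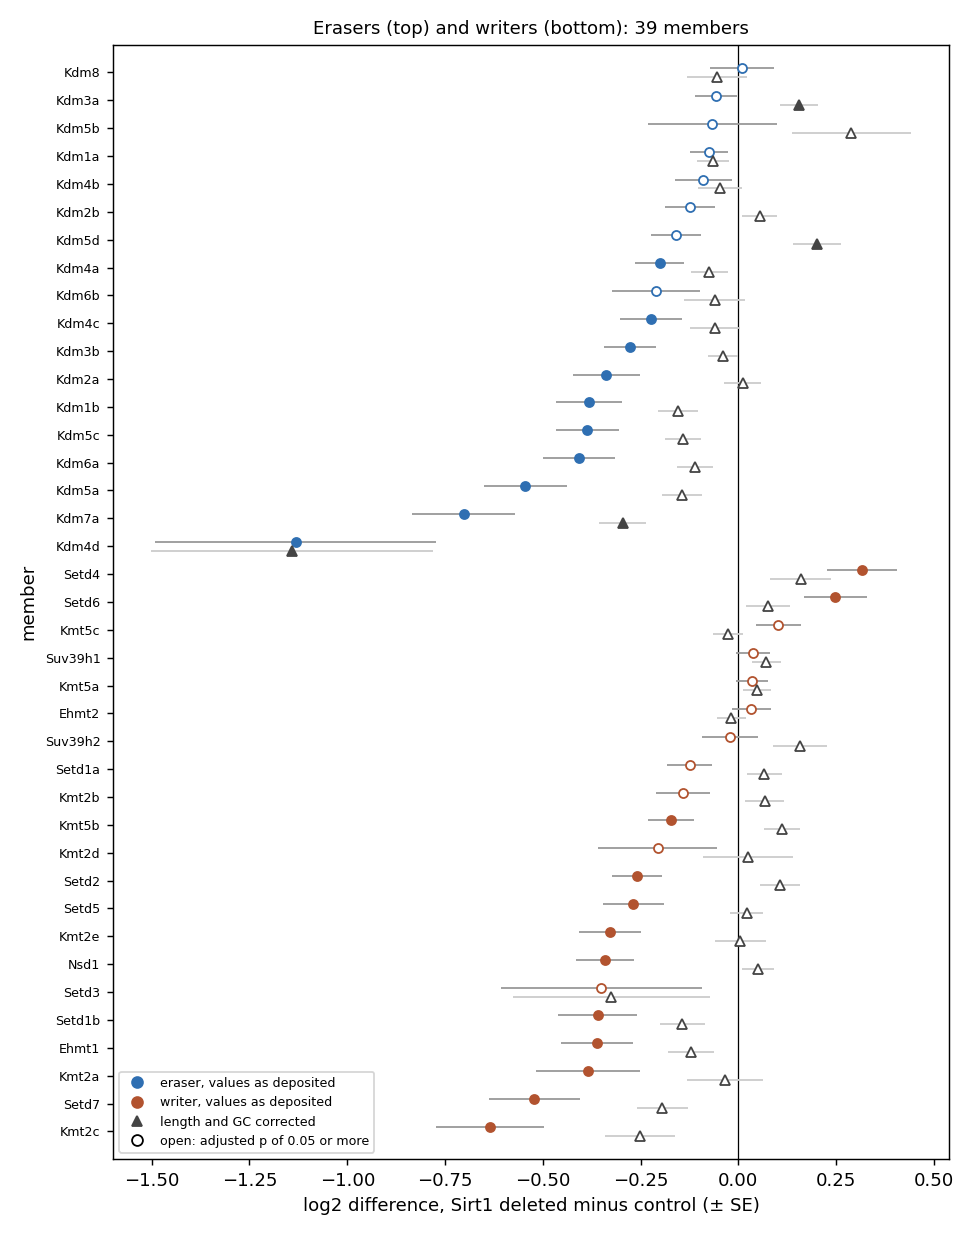
Log2 difference between the Sirt1 deleted and control groups with its SE for the 39 members, erasers above and writers below, each ordered by difference. Circles are values as deposited and triangles values corrected for transcript length and GC content; filled symbols passed an adjusted p of 0.05. Most circles lie left of 0, most triangles lie near it, and 4 triangles are filled (Kdm7a, Kdm4d, Kdm5d and Kdm3a).

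These transcripts are long, and the differences followed length. Their longest coding transcripts had a median of 6130 bases, against 3001 bases for all tested genes. In the class over 6000 bases, 14 of 20 members fell, with a median log2 difference of -0.30. All 1649 tested genes of that class had a median of -0.32, and 58.3% of them fell while 1.33% rose. Between 3000 and 6000 bases 5 of 12 members fell, where 23.4% of tested genes fell and 4.76% rose. Up to 3000 bases 1 of 7 members fell and 2 rose, where 3.1% of tested genes fell and 25.3% rose. Across the 39 members Spearman's rho between length and log2 difference was -0.56, close to the -0.58 across 13304 genes of known length; genes share the same libraries and are not independent, so both are descriptions. The members' median was -0.11 between 3000 and 6000 bases, against -0.10 for all tested genes of that class. Up to 3000 bases it was 0.03 against 0.13. The 5 writers of that class had a median of 0.10, and its 2 erasers stood at -1.13 (Kdm4d, barely expressed) and 0.01 (Kdm8). The members' medians were thus near those of all genes in the classes over 3000 bases and lower in the class of short transcripts, which holds 7 members.

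**Figure D2:**
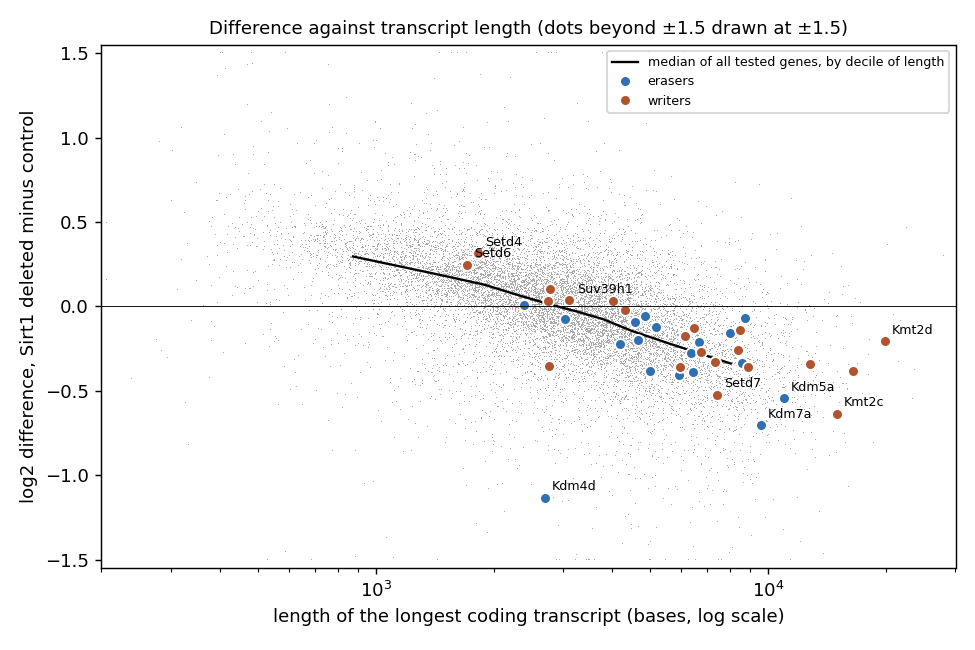
Log2 difference (Sirt1 deleted minus control) against the length of the longest coding transcript, on a log axis, with all tested genes in grey, writers in brown and erasers in blue. The black line joins the medians of all tested genes in 10 classes of length, from 0.30 in the shortest to -0.34 in the longest. Kdm7a (-0.70), Kmt2c (-0.63) and Kdm4d (-1.13) lie below the line, and Setd4 (0.32) above it.

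With every library corrected for transcript length and GC content, 2 members were lower (Kdm7a and Kdm4d), 2 were higher (Kdm3a and Kdm5d) and 35 did not pass. Over all genes with a known length 6.07% were then lower and 8.29% higher, so the members' counts of 2 and 2 in 39 stand near the background. The median over the members was -0.03. Of the difference in the 22 members called as deposited, the median share left was 28.9%. A difference between the groups that truly ran with length would be taken out as well.

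Writers and erasers fell in like numbers, and their median differences as deposited lay close together. Among the 21 writers 10 fell and 2 rose, with a median log2 difference of -0.21. Among the 18 erasers 10 fell and 0 rose (0 at an unadjusted p under 0.05 in limma), with a median of -0.22. As shares, 47.6% of writers and 55.6% of erasers were lower. The writers' median exceeded the erasers' by 0.01 as deposited and by 0.08 after correction, when the medians were 0.02 and -0.06. With Nsd2 and Nsd3 counted as writers the difference as deposited was -0.04, and without control library 4 it was -0.03, so its sign depends on these choices. After correction 0 of 21 writers passed in limma (5 at an unadjusted p under 0.05), against 4 of 18 erasers, 2 in each direction. Within single libraries, the median of the writers minus that of the erasers was 0.00, -0.07, -0.06, -0.05 and -0.02 in control libraries 1 to 5 as deposited and 0.11, 0.02, 0.02, -0.02 and 0.07 in Sirt1 deleted libraries 1 to 5, on the log2 scale. The means were -0.04 ± 0.03 and 0.04 ± 0.05 (SD, n = 5), and Sirt1 deleted library 4 lay within the control range. After correction the same differences were -0.015, -0.076, -0.078, -0.037 and -0.047 in controls and 0.088, -0.012, 0.041, 0.00036 and 0.134 in Sirt1 deleted libraries, with means of -0.05 ± 0.03 and 0.05 ± 0.06. Every Sirt1 deleted library then lay above every control, the nearest pair being -0.0120 and -0.0151. No test of writers against erasers is given, since the members were chosen with results known.

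As deposited, both classes were lower in most Sirt1 deleted libraries. The median deviation of the writers from their mean over 10 libraries was 0.14, 0.18, 0.10, 0.03 and 0.01 in control libraries 1 to 5 and 0.08, -0.08, -0.09, -0.10 and -0.23 in Sirt1 deleted libraries 1 to 5, on the log2 scale. For the erasers the same medians were 0.14, 0.25, 0.16, 0.08 and 0.02 in the control group and -0.03, -0.10, -0.11, -0.08 and -0.30 in the Sirt1 deleted group. The erasers of the groups did not overlap, while the writers of Sirt1 deleted library 1 stood above those of control libraries 4 and 5. Sirt1 deleted library 5, which had the steepest slope with length (-0.201), held the lowest value of its group for 25 of 39 members, and Sirt1 deleted library 1, with the least steep slope of its group (-0.0187), the highest for 24. In the control group library 2, the steepest (0.125), held the highest value for 18 members, and library 5, the least steep (0.00318), the lowest for 17. After correction the medians of the writers spanned -0.03 to 0.10 and those of the erasers -0.10 to 0.08, with the groups overlapping in each class taken alone.

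**Figure D3:**
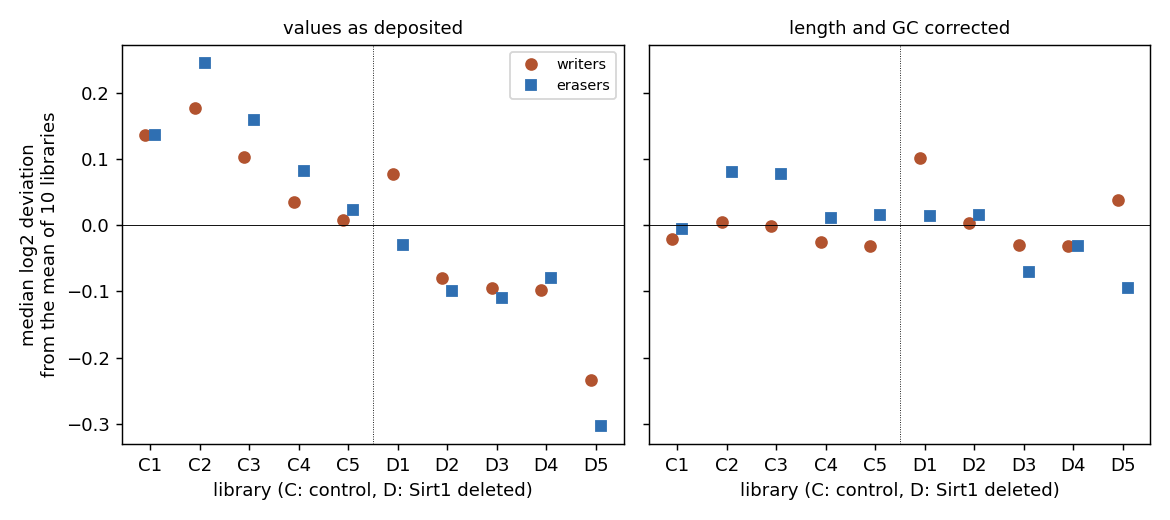
Median log2 deviation of the 21 writers (circles) and 18 erasers (squares) from each gene's mean over the 10 libraries, for 5 control (C1 to C5) and 5 Sirt1 deleted (D1 to D5) libraries. On the left, as deposited, both classes are lowest in D5 (-0.23 and -0.30); on the right, after correction for length and GC content, the medians lie between -0.10 and 0.10.

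Of 7 writers of H3K4 methylation 4 fell (Kmt2c, Setd7, Setd1b and Kmt2a), with a median log2 difference of -0.36. All 7 transcripts are over 6000 bases, a class in which 58.3% of tested genes fell, so this count stands near the background. After correction 0 of 7 passed in limma (3 at an unadjusted p under 0.05) and their median was -0.03. Kmt2c (chromosome 5, 25271798 to 25498783, minus strand, GRCm38) encodes the MLL3 enzyme that methylates enhancers. It held 3913, 4311, 3443, 2867 and 3003 normalized counts in control libraries 1 to 5 and 3068, 2301, 2118, 2063 and 1796 in Sirt1 deleted libraries 1 to 5. Sirt1 deleted library 1 lay within the control range and the other 4 below it. Its mean fell from 3507 ± 608 to 2269 ± 482 (SD, n = 5), a log2 difference of -0.63 (SE 0.139, limma adjusted p = 0.00927). The corrected difference was -0.25 and did not pass (adjusted p = 0.0721, within 0.00256 to 0.979 over the alternatives). Kmt2c was called in 1 of 11 settings that combined the correction with fewer libraries (limma adjusted p 0.0127 to 0.55).

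Setd7 encodes a monomethyltransferase of H3K4 that also methylates other proteins. Its values were 8154, 7863, 7255, 7099 and 6317 in the control libraries and 6182, 5047, 5166, 5704 and 3721 in the Sirt1 deleted ones, in order of library number. The groups did not overlap, although control library 5 and Sirt1 deleted library 1 lay close together. Setd7 fell by 0.52 on the log2 scale (SE 0.116, limma adjusted p = 0.00976) and stood at -0.19 after correction, where it did not pass.

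The remaining H3K4 writers differed less or varied more. Kmt2a encodes MLL1, the writer altered by translocation in some acute leukemias, and fell from 8165 ± 1142 to 6325 ± 1489 (-0.39, limma adjusted p = 0.0426). Sirt1 deleted library 1 held 8909 normalized counts of Kmt2a, above 4 of the 5 controls, and the other 4 held 5188 to 6173. The same library held 10498 of Kmt2d (MLL4), above every control, against 5139 to 6706 in the rest of its group. Kmt2d had a log2 difference of -0.21 (adjusted p = 0.31), and -0.37 with an adjusted p of 0.0127 in limma without that library. Setd1b, a subunit of the COMPASS complex that trimethylates H3K4 at promoters, fell by 0.36, while its paralog Setd1a (-0.12) and Kmt2b (-0.14) did not pass.

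Of 6 erasers of H3K4 methylation 3 fell, Kdm5a, Kdm5c and Kdm1b, and in each of them all Sirt1 deleted libraries lay below all controls. Such a lack of overlap was seen in 8.18% of all tested genes. The transcripts of Kdm5a and Kdm5c are over 6000 bases, where 58.3% of tested genes fell. That of Kdm1b has 4987 bases, in the class where 23.4% fell. After correction 0 of the 6 were lower in limma and 1, Kdm5d, was higher (4 at an unadjusted p under 0.05 in either direction). Kdm5a, which removes methyl groups from trimethylated H3K4 and was first known as a partner of the retinoblastoma protein, lies on chromosome 6 (120364124 to 120444574, plus strand, GRCm38). It held 5031, 5357, 4883, 4384 and 3881 normalized counts in the control group and 3666, 3306, 3350, 3377 and 2474 in the Sirt1 deleted group. It fell from 4707 ± 580 to 3234 ± 448 (-0.54, SE 0.107, limma adjusted p = 0.00831). The highest Sirt1 deleted value was that of library 1, just under control library 5. After correction Kdm5a stood at -0.14 with the groups overlapping and did not pass (limma adjusted p = 0.0718).

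Kdm5c, the X-linked paralog, held 6435, 6718, 5782, 5591 and 5470 in the control group and 5276, 4587, 4432, 4728 and 3958 in the Sirt1 deleted group (-0.39, limma adjusted p = 0.00855). Its Y-linked copy Kdm5d held 1368, 1517, 1409, 1300 and 1307 against 1333, 1274, 1245, 1198 and 1127 (-0.16, adjusted p = 0.0714). Reads of the X and Y copies may be split between them by the counting, so both values are uncertain. After correction Kdm5c stood at -0.14 (adjusted p = 0.0514) and Kdm5d at 0.20, called higher (adjusted p = 0.0443). Kdm5d is thus among the members whose sign turned, and 2 of its 23 alternatives called it, the correction as higher and the other as lower. Its corrected groups overlapped. It was called in 3 of 11 settings that combined the correction with fewer libraries (limma adjusted p 0.0239 to 0.361).

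Kdm1b, the LSD2 enzyme, held 1258, 1310, 1266, 1309 and 1070 in the control group and 1026, 912, 1011, 1028 and 797 in the Sirt1 deleted group (-0.38, SE 0.0842, limma adjusted p = 0.00938). Its corrected difference was -0.15, with the groups overlapping, and did not pass (limma adjusted p = 0.0618). Kdm1a, the LSD1 enzyme, was at 3932 ± 148 and 3731 ± 143 and did not pass (-0.08, adjusted p = 0.236), with a corrected difference of -0.07. Kdm5b was listed at 90.9 ± 21.9 and 85.7 ± 13.1 and did not pass.

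**Figure D4:**
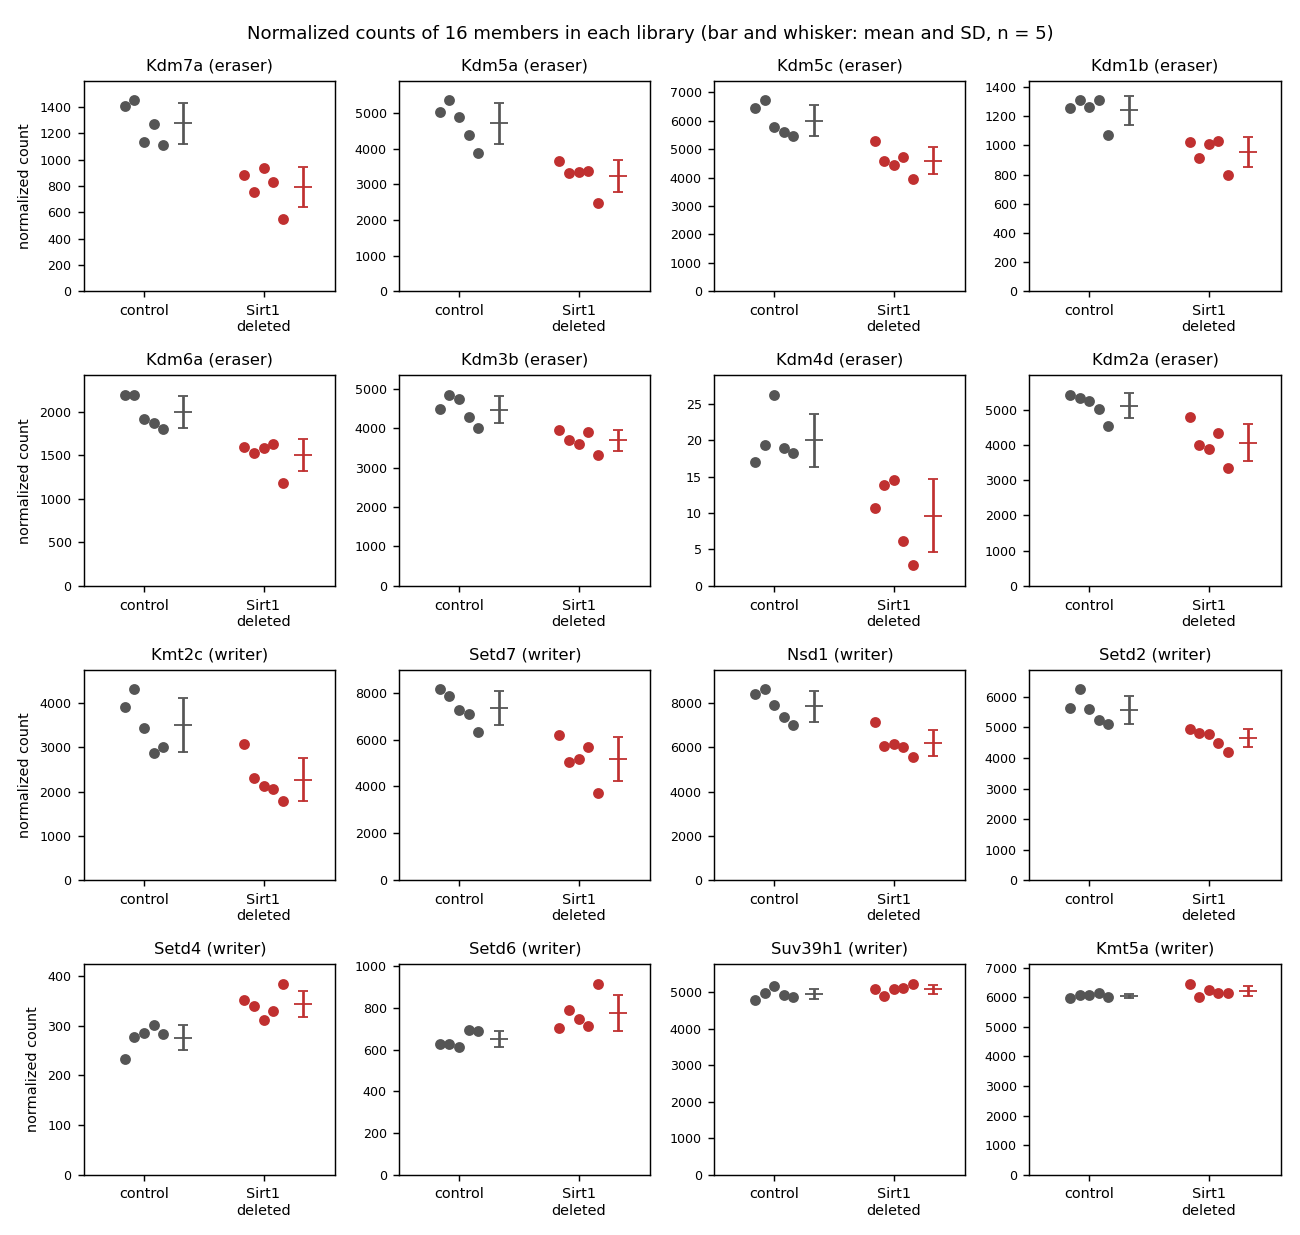
Normalized counts of 16 members in each library, with libraries 1 to 5 of a group from left to right and the mean and SD (n = 5) beside them; every axis starts at 0. The erasers in the upper panels and the writers Kmt2c, Setd7, Nsd1 and Setd2 are lower in the Sirt1 deleted group, Setd4 and Setd6 higher, and Suv39h1 and Kmt5a nearly level.

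Among enzymes acting on H3K9 the erasers fell more often than the writers: 5 of 7 erasers and 1 of 4 writers passed, all downward. The difference between these counts was not tested. Of all tested genes 17.5% fell, with 23.4% of those between 3000 and 6000 bases and 58.3% of longer ones. After correction 2 of the 7 erasers were lower and 1 was higher in limma. None of the writers passed then (1 at an unadjusted p under 0.05). Kdm7a, a Jumonji eraser of dimethylated H3K9 and H3K27, had the smallest p of all members. It held 1405, 1452, 1138, 1268 and 1113 normalized counts in control libraries 1 to 5 and 888, 751, 940, 828 and 551 in Sirt1 deleted libraries 1 to 5. The lowest control thus stood above the highest Sirt1 deleted library. Kdm7a fell from 1275 ± 153 to 792 ± 152, a log2 difference of -0.70 (SE 0.131, limma adjusted p = 0.00797), which left 62.1% of the control level.

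Kdm7a (chromosome 6, 39136623 to 39206789, minus strand, GRCm38) was also the member of smallest p after correction. Its corrected values were 1138, 1127, 1041, 1116 and 1085 in the control group and 941, 895, 985, 884 and 792 in the Sirt1 deleted group, again without overlap. The corrected log2 difference was -0.30 (SE 0.0601, limma adjusted p = 0.0104, within 0.00112 to 0.975 over the alternatives). It stayed called in 10 of 11 settings that combined the correction with fewer libraries, at -0.33 to -0.22 (limma adjusted p 0.00892 to 0.147). With the slopes entered in the model it was -0.12 and not called (adjusted p = 0.975). In the libraries of least slope, control library 5 and Sirt1 deleted library 1, Kdm7a stood at 1113 and 888.

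Kdm4d, a germline-enriched eraser of trimethylated H3K9, was barely expressed. It held 17.0, 19.4, 26.3, 18.9 and 18.3 normalized counts in the control group and 10.7, 13.9, 14.6, 6.12 and 2.94 in the Sirt1 deleted group, without overlap. The highest value rests on an estimated 27.9 reads and the lowest on 2.99. The log2 difference of value plus 1 was -1.13 (SE 0.359, limma adjusted p = 0.0306), and -1.14 after correction (adjusted p = 0.0498, within 0.0205 to 0.99 over the alternatives). It was called in 2 of 11 settings that combined the correction with fewer libraries (limma adjusted p 0.0345 to 0.261).

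The other H3K9 erasers were well expressed. Kdm3b held 4490, 4850, 4732, 4281 and 4006 in the control group and 3955, 3689, 3592, 3910 and 3310 in the Sirt1 deleted group (-0.28, limma adjusted p = 0.0118). Kdm4a fell by 0.20 and Kdm4c by 0.22, and Kdm4b did not pass (-0.09). Corrected, Kdm3b, Kdm4a and Kdm4c stood at -0.04, -0.07 and -0.06 and did not pass. Kdm3a, which acts on mono- and dimethylated H3K9, held 3633, 3833, 3449, 3256 and 3622 against 3379, 3400, 3619, 3435 and 3251, with the groups overlapping (-0.06, adjusted p = 0.431). After correction it was at 0.16 and called higher (limma adjusted p = 0.0476, within 0.0476 to 0.994 over the alternatives), in 1 of 23 alternatives. Its corrected groups overlapped. It was called in 3 of 11 settings that combined the correction with fewer libraries (limma adjusted p 0.0265 to 0.279).

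Of the H3K9 writers Ehmt1 alone passed. It encodes GLP, which dimethylates H3K9 as a heterodimer with G9a, and held 4024, 4406, 4010, 3619 and 3288 in the control group and 3517, 2818, 2844, 3282 and 2621 in the Sirt1 deleted group (-0.36, SE 0.0923, limma adjusted p = 0.0142, corrected -0.12 and not called). Ehmt2, which encodes G9a, was at 6163 ± 233 and 6309 ± 324 (0.03, adjusted p = 0.631). Suv39h1, which trimethylates H3K9 in heterochromatin, was at 4942 ± 141 and 5074 ± 124 (0.04, SE 0.0436, adjusted p = 0.517). Its paralog Suv39h2 was at 554 ± 44.5 and 545 ± 28.6 (-0.02). Whether the fall of Ehmt1 differs from the difference of Ehmt2 was not tested.

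The Jumonji erasers of H3K27 methylation are Kdm6a (UTX) and Kdm6b (JMJD3), both studied as regulators of T-ALL. Kdm6a (chromosome X, 18162575 to 18279936, plus strand, GRCm38) held 2194, 2184, 1913, 1867 and 1798 in the control group and 1597, 1527, 1587, 1629 and 1185 in the Sirt1 deleted group, without overlap (-0.41, SE 0.092, limma adjusted p = 0.0101). After correction it stood at -0.11 and did not pass. Kdm6b spread widely in the Sirt1 deleted group, from 2123 to 3630 around a mean of 2660 ± 579, against 3028 ± 106 in the control group (-0.21, adjusted p = 0.157). Library 1 again held the highest Sirt1 deleted value, above every control.

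Both members that write H3K36 methylation fell, and both transcripts are over 6000 bases, where 58.3% of tested genes fell. Nsd1, a dimethyltransferase, held 8385, 8628, 7888, 7345 and 6987 in the control group and 7139, 6056, 6167, 6032 and 5584 in the Sirt1 deleted group (-0.34, SE 0.0744, limma adjusted p = 0.00923). Setd2, which trimethylates H3K36 behind RNA polymerase II, held 5650, 6256, 5599, 5243 and 5107 against 4938, 4807, 4796, 4504 and 4208, without overlap (-0.26, limma adjusted p = 0.0131). Both turned positive after correction, at 0.05 and 0.11, and were not called. The related Nsd2 fell from 11485 ± 1016 to 9270 ± 1012 (-0.31) and Nsd3 from 3169 ± 220 to 2660 ± 175 (-0.25), with corrected differences of 0.06 and 0.12 that did not pass.

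Of the H3K36 erasers Kdm2a fell and Kdm2b did not pass. Kdm2a, which binds unmethylated CpG islands, held 5430, 5334, 5247, 5014 and 4539 in the control group and 4782, 3993, 3882, 4330 and 3349 in the Sirt1 deleted group (-0.34, SE 0.0855, limma adjusted p = 0.0138), and was at 0.01 after correction. Kdm2b, a subunit of a variant Polycomb complex, was at 3696 ± 106 and 3403 ± 330 (-0.12, adjusted p = 0.149).

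Of 3 writers of H4K20 methylation 1 fell. Kmt5a, the monomethyltransferase that acts in the cell cycle, held 5956, 6059, 6086, 6142 and 6002 in the control group and 6461, 6008, 6245, 6128 and 6150 in the Sirt1 deleted group (0.03, SE 0.0418, adjusted p = 0.54). Kmt5c was at 0.10 and did not pass. Kmt5b held 2167, 2161, 2114, 1954 and 2055 against 2021, 1858, 1834, 1892 and 1673 (-0.17, SE 0.0589, limma adjusted p = 0.0396), with a corrected difference of 0.11 that did not pass. Kmt5b has the longer transcript, 6130 bases, against 2739 for Kmt5a and 2774 for Kmt5c. Of tested genes over 6000 bases 58.3% fell, and of those up to 3000 bases 3.1% fell.

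Of 6 members without an established histone lysine activity 2 fell and 2 rose. The 2 that fell have transcripts over 6000 bases, where 58.3% of tested genes fell. The 2 that rose have transcripts under 3000 bases, a class in which 25.3% rose. Kmt2e, a SET protein of the MLL family with no proven activity, held 4851, 4824, 4517, 4452 and 4404 in the control group and 4336, 4020, 3505, 3440 and 3151 in the Sirt1 deleted group, without overlap (-0.33, SE 0.0792, limma adjusted p = 0.012, corrected 0.01). Setd5 fell by 0.27 (adjusted p = 0.0213) and was at 0.02 after correction. Kdm8 held 481, 393, 509, 416 and 473 against 428, 453, 465, 481 and 451 and did not pass (0.01, SE 0.0823, adjusted p = 0.938).

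Setd4 and Setd6, singled out after their values were seen, were the only members called higher as deposited. Setd4 held 233, 278, 285, 301 and 283 in the control group and 351, 339, 312, 330 and 385 in the Sirt1 deleted group, without overlap (0.32, SE 0.0904, limma adjusted p = 0.021). Setd6, which methylates the RelA subunit of NF-kB, held 628, 628, 611, 695 and 688 against 706, 792, 746, 712 and 917, without overlap (0.25, limma adjusted p = 0.0335). Their transcripts, of 1826 and 1707 bases, are the shortest of the 39. After correction they stood at 0.16 and 0.08, and neither was called. Setd3, an actin histidine methyltransferase, had a log2 difference of -0.35 that did not pass, and 1 library carried it: Sirt1 deleted library 5 held 733 normalized counts against 1840 to 2234 in the rest of its group, and without it the difference was -0.05.

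Per kilobase of the longest coding transcript, the members spanned a wide range in the control group. Kmt5a was highest at 2208 ± 26.3 normalized counts per kilobase (SD, n = 5), followed by Suv39h1 at 1586 ± 45.3, Ehmt2 at 1531 ± 57.9 and Kdm1a at 1299 ± 48.9. Suv39h1 and Ehmt2 lay within their spread of each other. These 4 highest members are also among those with differences under 0.1 in either direction. Their transcripts, of 2739, 3116, 4026 and 3028 bases in that order, are shorter than the members' median of 6130. Levels per kilobase are divided by length and the differences followed length, so level and difference are not independent here. At the other end stood Kdm5b (10.4 ± 2.51) and Kdm4d (7.41 ± 1.35). These levels depend on the transcript taken for each gene.

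Promoters are shown for 3 members that fell and 1 that rose, picked after their values were seen, to let the base composition before the start be compared. Each line gives the 120 bases before the start, 5′ to 3′ on the gene's strand (RefSeq, GRCm38.p6). Capitals mark matches on either strand to the GC box, spelled GGGCGG, where neighbouring matches run together. Capitals also mark the CCAAT box, spelled as it is named. The last motif in capitals is the core bound by ETS factors, spelled CCGGAA, which overlaps no other match in these stretches. The E-box, spelled CACGTG, was searched for as well. So was the TATA box, spelled TATAAA.
Kdm7a, chr6:39206774-39206893, minus strand: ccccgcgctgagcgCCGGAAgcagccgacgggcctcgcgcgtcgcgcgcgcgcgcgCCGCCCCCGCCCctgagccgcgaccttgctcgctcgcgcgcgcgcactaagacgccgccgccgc
Kmt2c, chr5:25498784-25498903, minus strand: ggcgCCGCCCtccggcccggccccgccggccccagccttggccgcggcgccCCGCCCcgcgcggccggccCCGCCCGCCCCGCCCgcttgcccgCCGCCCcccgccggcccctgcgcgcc
Kdm1b, chr13:47043379-47043498, plus strand: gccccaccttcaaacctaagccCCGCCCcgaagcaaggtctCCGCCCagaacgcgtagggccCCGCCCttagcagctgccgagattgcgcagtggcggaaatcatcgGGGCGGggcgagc
Setd4, chr16:93603816-93603935, minus strand: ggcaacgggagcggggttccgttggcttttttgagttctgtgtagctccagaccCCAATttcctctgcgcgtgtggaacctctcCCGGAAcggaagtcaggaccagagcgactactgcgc

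The printed stretch held 30 CpG dinucleotides in Kdm7a, 24 in Kmt2c, 12 in Kdm1b and 9 in Setd4. In RefSeq 30 of the 39 members had promoter windows, 42 in all. A GC box was found in the 250 bases before the start in 66.7% of the members' windows and in 55.1% of the 13262 windows of all tested genes. By class the shares were 78.3% in 23 windows of writers and 52.6% in 19 windows of erasers. CCAAT boxes were in 38.1% of the members' windows against 35.4% of all windows, ETS cores in 21.4% against 21.3%, E-boxes in 9.52% against 8.08% and TATA boxes in 2.38% against 6.7%. A match is a run of letters only, and windows of 1 gene overlap.

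Of 55 tested genes in 4 lists of related enzymes and partners 17 fell, 4 rose and 34 did not pass, where 17.5% of all tested genes fell and 14.5% rose. Their median log2 difference was -0.07. After correction 2 were lower (Rcor1 and Uty) and 3 higher, with a median of -0.02, where 6.07% and 8.29% of genes of known length were called. The 3 called higher were Gse1 (0.31, limma adjusted p = 0.00735), Smyd3 (0.26, adjusted p = 0.0114) and Wiz (0.16, adjusted p = 0.0294), named after their values were seen; as deposited none of them passed. Among 13 COMPASS and MLL complex subunits 4 fell and 2 rose. The scaffold Hcfc1 fell from 18522 ± 2028 to 14484 ± 1459 (-0.35, limma adjusted p = 0.0124) and the coactivator Ncoa6 from 3105 ± 259 to 2498 ± 216 (-0.31). Among 15 other SET domain and DOT1L writers 3 fell. Ash1l, a writer of H3K36 methylation, fell from 2247 ± 217 to 1594 ± 250 (-0.50, limma adjusted p = 0.00855), and Prdm2 fell by 0.34. None of these 4 genes passed after correction.

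Of 13 other Jumonji enzymes and relatives 5 fell and 1 rose, with a median transcript length of 5208 bases. Of all tested genes 17.5% fell and 14.5% rose. Between 3000 and 6000 bases 23.4% fell, and of longer genes 58.3% fell. Jmjd1c, a relative of Kdm3a and Kdm3b, fell by 0.45 (limma adjusted p = 0.00797, corrected -0.07 and not called), and Uty, the Y-linked copy of Kdm6a with which reads may be shared, by 0.52 (adjusted p = 0.00883), with a corrected -0.23 that was still called (adjusted p = 0.0378). Of 14 partners of LSD1 and of H3K9 readers 5 fell and 1 rose, with a median transcript length of 4424.5 bases. Rcor1 encodes CoREST, the scaffold that LSD1 needs to act on nucleosomes. It held 2637, 2763, 2485, 2420 and 1896 normalized counts in the control group and 1809, 1382, 1480, 1498 and 759 in the Sirt1 deleted group, without overlap. Rcor1 fell by 0.86 on the log2 scale (limma adjusted p = 0.00911), more than any member above 100 normalized counts. After correction it stood at -0.61, still called (limma adjusted p = 0.0184, within 0.00113 to 0.988 over the alternatives). Its corrected groups overlapped, with control library 5 at 1866 and Sirt1 deleted library 1 at 1878. The log2 difference ran from -1.12 to 0.05 over the alternatives. Zmym2, a zinc finger protein of the LSD1 complex, fell from 2983 ± 157 to 2331 ± 290 (-0.36, limma adjusted p = 0.0106), without overlap, and stood at -0.01 after correction, where it did not pass. Kdm1a, the catalytic partner of CoREST, did not pass in either set of values.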

How the data were processed

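Strand-specific libraries of total RNA were made from single-cell suspensions of leukemic spleens after red cell lysis, per the labels' protocols. The submitters' processing notes name kallisto 0.44.0, DESeq and mm10; annotation, gene filter and whether counting used strand are not given in the sources used here. The authors deposited 1 signal per gene and library, the normalized count. The values are not whole, and of those under 8 only 83.3% to 91% lay within 0.1 of a whole multiple of a step, so count models were not fitted. Estimated depth is each total divided by its step; 100 normalized counts rest on 62.0 to 131 reads, a counting error of 12.7% to 8.74%.

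The groups were tested by limma-trend (limma 3.58.1, R 4.3.3) on log2(value + 1), with no covariate, over 13567 genes with 10 or more in at least 5 libraries; fold changes of low genes are understated on this scale. Adjusted p-values are Benjamini-Hochberg values, called at 0.05, and tests are two-sided. Length and GC content come from the longest protein-coding transcript (GENCODE M21, GRCm38), or the longest of any kind where a gene has none, for 13304 tested genes. The correction subtracts natural splines (5 degrees of freedom each) fitted per library to deviations from gene means. Ranges given over the alternatives come from fits of uncorrected values, apart from the correction itself. Members and lists were chosen with earlier results of these data known. Values in every library are given for the 12 called members of smallest p, those called after correction, those with a log2 difference of 0.5 or more, and the smallest p per site and role. From each related list the 2 called genes of smallest p are named; other genes were named after their values were seen. The fits and the correction were also run on simulated libraries with noise drawn separately for each gene. These had either no length trend or one linear in log2 length. Other effects shared between the genes of a library were not simulated, so no conclusion is drawn from these runs. No sample numbers pair the groups. Tables were joined in Python 3.11.15 (pandas 2.3.3).

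Other settings tried were other pseudocounts (5 or 0.5), a filter at 50 or none, quantile or TMM scaling, array weights, a robust fit, the mean log2 level of B cell or macrophage markers or the length slope as a model term, the correction, fits lacking 1 library or the 3 of steepest slope, and other member sets.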

Additional observations from a re-analysis of the deposited data

Results flagged for a closer look

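In each group of 5 libraries, the highest or lowest value was set against the rest for the 39 members and Sirt1, 80 groups in all. In 8 of them 1 library stood apart by more than 0.71 of the group's range; chance flags about 1 in 20 groups, and the genes share their libraries. Sirt1 deleted library 1 was high for Kmt2a, at 8909 against 5188 to 6173 in the other libraries of its group, and for Setd1a, at 4749 against 4230 to 4366. Sirt1 deleted library 5 was low for Setd3, at 733 against 1840 to 2234, and for Kdm6a, at 1185 against 1527 to 1629. Control library 3 was high for Kdm4b, at 2104 against 1877 to 1907, and for Kdm4d, at 26.3 against 17.0 to 19.4. Control library 4 was high for Suv39h2, at 632 against 525 to 550. Control library 5 was low for Kdm1b, at 1070 against 1258 to 1310.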

How the results depend on the processing

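Pseudocounts, the filter, TMM scaling, the robust fit and array weights left 19 to 21 members lower. With B cell markers, macrophage markers or the length slope in the model, or without the 3 libraries of steepest slope, limma called 0 members, writers, erasers and related genes lower and 0 higher; at an unadjusted p under 0.05 it gave 20, 27, 0 and 15 members lower and 0, 1, 0 and 0 higher. The correction left 2 members, 0 writers, 2 erasers and 2 related genes lower, and 0 writers, 2 erasers and 3 related genes higher. Without members lacking an established activity 0 writers were higher (2 with them, also at an unadjusted p under 0.05), and quantile scaling gave 7 related genes higher. The corrected fit without the 3 libraries of steepest slope called 0 members lower and 0 higher in limma. Over all 13567 tested genes the calls with B cell markers, macrophage markers, the slope and without the 3 libraries were 1, 0, 0 and 3, against 4344. The cause of these changes was not tested.

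The median log2 difference of the writers and the median log2 difference of the erasers were -0.314 and -0.316 with macrophage markers, -0.000828 and -0.016 with the slope, 0.0244 and -0.0603 after correction (difference 0.0846), and -0.102 for writers without the 3 libraries. With Nsd2 and Nsd3 the writers median minus erasers median was -0.0354. Sirt1 was at -0.27, -0.362, -0.00703 and -0.271 with B cell markers, macrophage markers, the slope and without the 3 libraries, and not called. After correction Sirt1 was at -0.255 and called lower (limma adjusted p = 0.0313), without overlap.

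Leaving out 1 library gave 13 to 25 members lower (25 without Sirt1 deleted library 1), 0 to 2 higher, 6 to 12 writers lower and 0 to 2 higher, 7 to 13 erasers lower, 11 to 19 related genes lower and 1 to 4 higher. After correction it gave 1 to 7 members lower (7 without Sirt1 deleted library 1) and 0 to 2 higher. Medians ran from -0.28 to -0.14 for writers and from -0.27 to -0.18 for erasers. The writers median minus erasers median ran from -0.0329 to 0.0613, and was -0.00449 without control library 1 and -0.00995 without Sirt1 deleted library 1. Sirt1 ran from -0.50 to -0.35.

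Signs turned after correction for Ehmt2 (-0.018), Kdm2a (0.011), Kdm2b (0.054), Kdm3a (0.16), Kdm5b (0.29), Kdm5d (0.20), Kdm8 (-0.055), Kmt2b (0.068), Kmt2d (0.024), Kmt2e (0.0053), Kmt5b (0.11), Kmt5c (-0.026), Nsd1 (0.050), Setd1a (0.067), Setd2 (0.11), Setd5 (0.021) and Suv39h2 (0.16). With the slope in the model they turned for Ehmt1 (0.013), Kdm2a (0.025), Kdm2b (0.062), Kdm3a (0.028), Kdm4b (0.053), Kdm4c (0.028), Kdm5b (0.15), Kdm5d (0.015), Kdm6b (0.13), Kdm8 (-0.025), Kmt5b (0.0020), Kmt5c (-0.00083), Setd1b (0.043), Setd3 (0.47), Setd5 (0.050), Setd6 (-0.049) and Setd7 (0.031). Without the 3 libraries Kdm3a was at 0.0075, Kdm5b at 0.095 and Kdm8 at -0.025. Suv39h2 was at 0.022 with B cell markers, Ehmt2 at -0.025 with macrophage markers and Kdm3a at 0.016 with quantile scaling. Kdm5b (0.061) and Kdm8 (-0.041) turned without control library 2, Kdm8 (-0.021) and Suv39h2 (0.027) without control library 4, and Kdm8 (-0.0102) without Sirt1 deleted library 4; the highest Kdm8 log2 difference was 0.0524, without control library 3.

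No paired analysis was possible because the labels match no control with a Sirt1 deleted sample. Precision is limited by 5 libraries a group; at an estimated depth of 21.2 to 44.3 M reads, counting error matters mainly for Kdm4d and Kdm5b.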
